A study of Mus musculus with 14 samples.

Results

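The transcriptome described here is that of liver sinusoidal endothelial cells (LSECs) from young mice, measured at baseline. Its members were all libraries that the labels call young, which were 7 of the 14 in the series. The other 7 came from aged mice of 10 to 11 months. The young mice were female C57BL/6J wild type animals of 8 to 10 weeks, and age is the sole entry under treatment, and the labels name no agent, Cre or transgene. Cells were sorted from liver by flow cytometry for dim CD45, high STAB2 and high CD146. Young libraries 1.1 to 1.3 belonged to experiment 1 (n = 3) and young libraries 2.1 to 2.4 to experiment 2 (n = 4). The design text calls the experiments biological replicates, but no label says that each library is a separate mouse, so spreads and p-values cover only the differences between these samples, which may be technical. Levels were given in CPM, the reads of a target per 1000000 gene reads of its library, and the questions were which transcripts were abundant and how far the 7 libraries differed.

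LSECs are fenestrated endothelial cells without an organized basement membrane that line the liver capillaries. They clear modified proteins, glycosaminoglycans and immune complexes from blood through scavenger receptors and a large lysosomal system. They also signal to their neighbours: BMP2 and BMP6 from LSECs make hepatocytes secrete hepcidin, which restrains iron absorption, and Wnt ligands from LSECs around the central vein set hepatocyte zonation. Among transcription factors, GATA4 and MAF are known for sinusoidal identity and ETS1 belongs to the ETS family that most endothelial enhancers bind. The series title concerns Bmp6 and ETS1 in iron-triggered signalling.

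The Ion AmpliSeq panel amplifies 1 short product per gene, so a CPM value depends on transcript number and on how well that product amplifies, and not on transcript length. Across 3251 targets above background, the Spearman correlation of mean CPM with transcript length was 0.0103, a description across targets that share the same libraries. Ranks below are therefore ranks of reads. A low value need not mean an absent transcript: Rab7, which encodes a small GTPase of late endosomes, had 0 reads in all 7 libraries, and Fth1, the ferritin heavy chain, averaged 0.0342 CPM (both are list members singled out after their values were seen). In sorted cells measured in bulk, fewer cells of a type and less RNA per cell cannot be told apart.

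The young libraries held 6710403 (young 2.2) to 13604750 (young 2.1) gene reads, with a median of 12058953, and 12637 to 14574 of 23930 targets had at least 10 reads. A count of 0 allows up to 0.221 to 0.447 CPM, depending on the library. Targets of olfactory, vomeronasal and taste receptors, genes known from sensory cells, took 0.250% (young 2.3) to 3.02% (young 1.1) of gene reads, and 95% Wilson intervals of these shares were at most 0.0255 percentage points wide. Such intervals cover counting error only, because the reads carry no molecular identifiers. The 95th percentile of these 1325 chemosensory receptor targets served as background in each library. It was 52.1, 21.1 and 46.7 CPM in young 1.1, 1.2 and 1.3, and 17.8, 54.1, 4.66 and 8.18 CPM in young 2.1, 2.2, 2.3 and 2.4. A target is called above background where it exceeded this level in all 7 libraries, which 3292 of 23930 targets did (13.8%), among them 20 chemosensory receptor targets.

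This background differed with the number of exons in the gene, which was taken from the GENCODE transcript paired with each target and found for 85.2% of targets. The 1131 chemosensory receptor targets of 1-exon genes had a lower quartile of 1.05 to 14.6 CPM across libraries, and the 851 other targets of 1-exon genes had one of 1.40 to 15.7 CPM. Among genes of 6 to 10 exons, the lower quartile was 0 CPM in every library for 81 chemosensory receptor targets and 0.116 to 0.298 CPM for 5365 others. The receptor level therefore describes genes of 1 exon, and it was strict for genes of several exons. Of 17073 non-receptor targets of at least 3 exons, 3072 passed it, whereas 11048 exceeded the 95th percentile of the vomeronasal type 2 receptors in all 7 libraries (84 targets with a median of 6 exons, at 0 to 0.276 CPM). Where the amplicons lie relative to exons is not known here, and the source of the reads in 1-exon receptor genes was not tested.

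**Figure D1:**
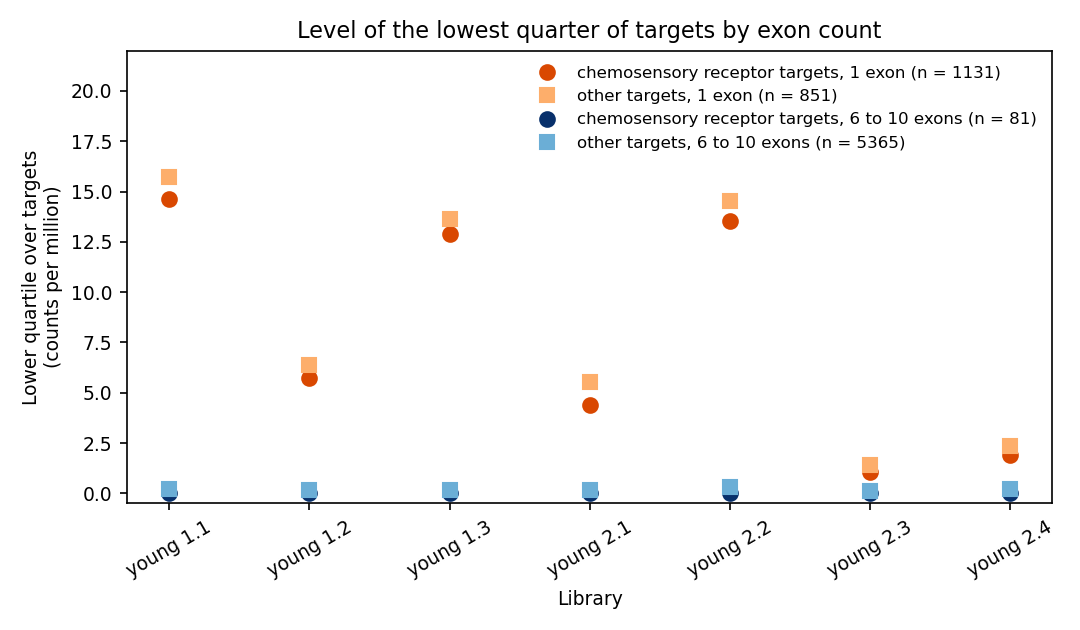
Lower quartile of CPM in each of the 7 young libraries, for chemosensory receptor targets and other targets of genes with 1 exon and with 6 to 10 exons. In 1-exon genes both kinds of target lay at 1.05 to 15.7 CPM and moved together across libraries, and in genes of 6 to 10 exons both stayed at or under 0.298 CPM.

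The labelled cell type matched its markers. Stab2, the hyaluronan receptor of LSECs whose protein was also used in the sort, stood at 1980, 2144 and 2024 CPM in the libraries of experiment 1 and at 2101, 1956, 2027 and 2145 CPM in those of experiment 2 (mean 2054 ± 76.7 SD, n = 7, rank 42 of 23930). The coefficient of variation (CV, SD over mean) of Stab2 was 3.73% on this scale, and 11.7% after TMM scaling (trimmed mean of M-values), which moves all CPM of a library by 1 factor and put its levels at 1700 to 2327. Stab1, the related scavenger receptor for modified lipoproteins and matrix fragments, had 4357, 4850 and 4340 CPM in experiment 1 and 5207, 4455, 4301 and 5987 CPM in experiment 2 (4785 ± 626, rank 12). Young 2.4 had the highest Stab1 value, and the experiments overlapped.

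Of the BMP ligand pair, Bmp2 was more abundant in reads than Bmp6 in each library. Bmp2 had 1375, 2193 and 1791 CPM in experiment 1 and 1397, 1133, 1256 and 874 CPM in experiment 2 (1431 ± 437, rank 65). Bmp6 had 370, 488 and 364 CPM in experiment 1 and 355, 236, 431 and 195 CPM in experiment 2 (348.6 ± 102, rank 421). Both ligands were highest in young 1.2 and lowest in young 2.4. Ets1 had 1201, 1021 and 958 CPM in experiment 1 and 1245, 873, 1283 and 1279 CPM in experiment 2 (1123 ± 169, rank 86), with the lowest value in young 2.2. As CPM, Ets1 thus did not share the extreme libraries of Bmp6. After TMM scaling both were lowest in young 2.2, Bmp6 at 205 and Ets1 at 759.

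The wider list of 20 LSEC identity genes had 17 members above background, beside 13.8% of all targets, and the median of its mean levels was 1346 CPM against 4.04 CPM over all targets. 15 of its members averaged at least 1000 CPM. Clec4g, the C-type lectin LSECtin, was the highest at 7918, 9688 and 9491 CPM in experiment 1 and 9971, 7766, 10605 and 5870 CPM in experiment 2. Dnase1l3, a secreted DNase that degrades chromatin in blood, had 5506 to 9541 CPM with a median of 7148 CPM, and Ehd3, a membrane-remodelling ATPase of endosomes, had 2042 to 4754 CPM with a median of 3892 CPM. Clec4g and Ehd3 were lowest in young 2.4, the library with the highest Stab1. The mannose receptor Mrc1 averaged 2381 CPM, the transcription factor Maf 2338 CPM, the VEGF receptors Kdr and Flt4 1944 and 1101 CPM, and coagulation factor F8 1381 CPM. The hyaluronan receptor Lyve1 averaged 1310 CPM, the atypical chemokine receptor Gpr182 1262 CPM, the secreted protein Oit3 1162 CPM and Gata4 270.2 CPM. The 3 members not above background were the inhibitory Fc receptor Fcgr2b at 24.8 CPM (20.2 to 29.7), the ficolin Fcna at 1.83 to 6.21 CPM and the lectin Cd209a, which had no read in 4 libraries and at most 2.13 CPM. Of the sort markers, Mcam, which encodes CD146, had 376 to 797 CPM, and Ptprc, which encodes CD45, had 1.29 to 38.7 CPM with its highest values in young 2.1 and 2.2.

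Promoters were compared across abundance classes by base composition. Sequences are the 250 bases before the start of a gene in the RefSeq table of GRCm38.p6, found for 17624 of 23930 targets and for 12 of the 20 identity genes. The median number of CG dinucleotides in this window was 4 for targets under 1 CPM, 9 for those at 1 to 10 CPM, 14 for those at 10 to 100 CPM, 18 for those at 100 to 1000 CPM and 15 for the 73 at 1000 CPM or more. It was 4.5 for the 12 identity genes and 4 for 13 scavenger receptor genes, against 9 over all targets. Of the 12, Cd209a, Fcna and Fcgr2b were not above background, and the other 9 had a median of 5. Stab2, Stab1 and Kdr are shown as abundant LSEC genes with few and with many, 3, 5 and 16 CG dinucleotides, which are in capitals below. Each is read 5′ to 3′ on the minus strand and leaves out bases that an annotated exon covers: Stab2 is chr10:87008026-87008192, Stab1 is chr14:31168642-31168891 and Kdr is chr5:75978459-75978705.
Stab2: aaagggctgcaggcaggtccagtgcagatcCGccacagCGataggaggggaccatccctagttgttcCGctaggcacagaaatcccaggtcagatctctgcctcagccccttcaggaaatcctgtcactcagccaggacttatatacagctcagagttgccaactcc
Stab1: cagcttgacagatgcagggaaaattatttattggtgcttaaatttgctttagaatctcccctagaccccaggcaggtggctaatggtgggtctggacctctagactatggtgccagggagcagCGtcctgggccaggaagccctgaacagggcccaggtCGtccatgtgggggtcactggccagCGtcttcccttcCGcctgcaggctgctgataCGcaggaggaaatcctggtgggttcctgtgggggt
Kdr: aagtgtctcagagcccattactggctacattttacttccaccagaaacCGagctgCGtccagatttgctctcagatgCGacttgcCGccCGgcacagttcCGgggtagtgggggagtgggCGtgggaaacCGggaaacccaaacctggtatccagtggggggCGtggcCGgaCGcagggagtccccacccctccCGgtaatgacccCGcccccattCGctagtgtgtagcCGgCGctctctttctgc
The shorter GGAA core bound by ETS factors was not counted. The letters CCGGAAG, an extended form of it, were searched on both strands. They were found in 8.77% of all promoters, in 4.11% of those at 1000 CPM or more and in 14.04% of those at 10 to 100 CPM. They were in 1 of the 12 identity promoters, that of Cd209a. GGGCGG, the core bound by SP and KLF factors, was in 41.8% of all promoters and in 4 of the 12 identity promoters. No motif searched is contained in another, and a match describes letters in this window only.

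Most reads came from few targets. The 98 targets with a mean of at least 1000 CPM held 26.8% of reads, the 1862 at 100 to 1000 CPM held 44.1%, and the 7654 at 10 to 100 CPM held 26.8%. No read was found in any young library for 2444 targets. Per library, the first target held 2.35% to 4.04% of gene reads, the first 20 held 11.7% to 15.1%, and 488 to 785 targets held 50% of reads. Of the 30 targets with the highest mean, 24 to 27 were also among the first 30 of each library taken alone, and 17 were among the first 30 of every library.

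Selenop, the plasma carrier of selenium, was first in all 7 libraries. It had 33431, 40417 and 37698 CPM in experiment 1 and 33771, 23502, 33938 and 24945 CPM in experiment 2, a mean of 32529 ± 6222 CPM (SD, n = 7). Young 2.2 and 2.4 were the lowest, and the experiments overlapped. The nuclear RNA Malat1 followed at 8079 to 13364 CPM, and Rpph1, the RNA of ribonuclease P, at 6852 to 13393 CPM. Rmrp, the RNA of the related RNase MRP, had 3006 to 6355 CPM. All 3 are noncoding RNAs and were among the first 30 in every library.

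Several of the first 30 are known endothelial genes. Eng, the co-receptor endoglin for BMP9 and BMP10, had 5126, 6271 and 6242 CPM in experiment 1 and 6643, 5553, 6965 and 6608 CPM in experiment 2 (6201 ± 649). Ptprb, the phosphatase that restrains the angiopoietin receptor, had 2822 to 3373 CPM with a CV of 6.43% (12.2% after TMM scaling), and the junction protein Cdh5 had 2266 to 2807 CPM with a CV of 7.99% (15.3%). The water channel Aqp1 averaged 3532 CPM, the peptidase Dpp4 2893 CPM, the sulfotransferase Chst15 2724 CPM, the IGF-binding protein Igfbp7 2692 CPM, the cobalamin carrier Tcn2 2436 CPM and the junction protein Pecam1 2530 CPM. Plpp1, which degrades lipid phosphates, averaged 5253 CPM and had no overlap between experiments before TMM scaling between libraries, with 5201 to 6662 CPM in experiment 1 and 4227 to 4980 CPM in experiment 2. The remaining protein-coding members included the cytoskeletal genes Actb (8654 CPM), Pfn1 (3559 CPM) and Tmsb4x (2432 CPM) and the class I genes B2m (5043 CPM) and H2-K1 (3084 CPM). Reads of H2-K1 and of Actb could be shared with near-identical copies, and how such reads were counted is not stated in the labels. Jun (4898 CPM) and Egr1 (2957 CPM), which are immediate early genes, had the highest CVs of the 30, at 42.3% and 86.2%.

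**Figure D2:**
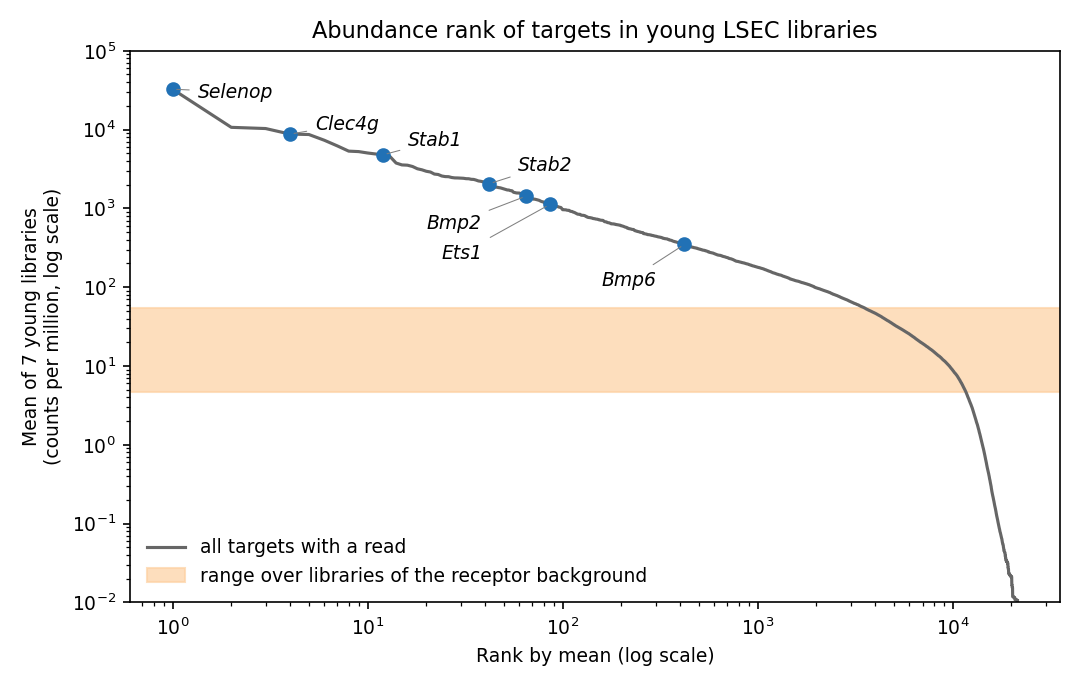
Mean CPM of the 7 young libraries against rank, both on log scales, with 7 named genes as points and the range of the receptor background (4.66 to 54.1 CPM) as a band. Selenop is at rank 1 with 32529 CPM, Stab1 at 12, Stab2 at 42, Bmp2 at 65, Ets1 at 86 and Bmp6 at 421, all above the band.

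Receptors and surface proteins were taken from lists by function, 179 targets in all. Of these, 84 were above background (46.9%, against 13.8% of all targets) and 158 above the lower level of the vomeronasal type 2 receptors, which 14345 of all targets passed, the median of their means was 55.1 CPM, and together they held 7.21% of reads. Scavenger and endocytic receptors, which bind waste molecules for uptake, formed the class with the most reads, at a summed 22887 to 26471 CPM per library. 14 of 20 were above background. After Clec4g, Stab1, Mrc1 and Stab2 came the neonatal Fc receptor Fcgrt at 1550 to 2302 CPM, Lyve1, the fatty acid translocase Cd36 at 514 to 1283 CPM, the lectins Clec2d (756 CPM) and Clec1b (686.5 CPM) and the HDL receptor Scarb1 (329.5 CPM). Lyve1 was highest in young 2.4 at 2095 CPM and lowest in young 1.2 at 839 CPM, so members of this class did not share 1 order of libraries. Lrp1, a broad endocytic receptor, averaged 5.72 CPM and Colec12 0.0579 CPM.

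Among receptor tyrosine kinases and neuropilins, 12 of 29 were above background. Kdr, the main VEGF receptor, had 2272, 2671 and 2133 CPM in experiment 1 and 2013, 1431, 1757 and 1331 CPM in experiment 2. All values of experiment 1 lay above those of experiment 2. Flt4, the receptor for VEGF-C, had the opposite order, with 811 to 1058 CPM in experiment 1 and 1090 to 1338 CPM in experiment 2, with overlap after TMM scaling. Flt1, the VEGF decoy receptor, had 336 to 379 CPM with a CV of 4.75%, or 9.52% after TMM scaling. The VEGF co-receptors Nrp1 and Nrp2 averaged 1117 and 713.7 CPM, the angiopoietin receptor pair Tek and Tie1 558.2 and 417.3 CPM, and the stem cell factor receptor Kit 492.2 CPM. Ephb4, the receptor for ephrin-B2, had 66.3 to 103 CPM in experiment 1 and 200.3 to 229 CPM in experiment 2. Receptors of other liver cells were low, with 2.05 CPM for Pdgfrb, 1.37 CPM for Egfr and 1.73 CPM for Met.

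BMP and TGF-beta receptors had 7 of 15 members above background. After Eng, the type II receptor Bmpr2 had 964, 1037 and 994 CPM in experiment 1 and 1230, 1031, 1063 and 865 CPM in experiment 2, with overlap. The co-receptor Tgfbr3 averaged 325.3 CPM, Tgfbr2 158.0 CPM, the type I receptor Acvr1 109.8 CPM and Acvr2a 71.2 CPM. Acvrl1, the endothelial type I receptor ALK1, had 25.2 to 33.0 CPM, above background in the 4 libraries where background was lowest, and Tgfbr1 averaged 10.3 CPM. All 15 are genes of at least 3 exons, and 13 of them exceeded the level of the vomeronasal type 2 receptors in all 7 libraries.

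Cytokine and innate immune receptors had 15 of 25 members above background. The signal-transducing subunit Il6st had 2197, 3292 and 2447 CPM in experiment 1 and 2064, 2007, 1974 and 1470 CPM in experiment 2, without overlap except after TMM scaling. Its partner Lifr, the LIF receptor, averaged 1820 CPM and the oncostatin M receptor Osmr 245.7 CPM, whereas the IL-6-binding chain Il6ra averaged 0.723 CPM. The receptors Tnfrsf1a (470 to 566 CPM), Il10rb (430 to 499 CPM) and Ifngr1 (280 to 353 CPM) had CVs of 6.52%, 5.99% and 7.77%, which TMM scaling raised to 10.2%, 10.4% and 16.2%. Il4ra averaged 427.9 CPM, Ltbr 192.3 CPM, Ifngr2 142.5 CPM and the endotoxin receptor Tlr4 140.9 CPM.

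Adhesion and junction molecules had 18 of 29 members above background and a median mean of 271.9 CPM. Pecam1 had 1751, 2200 and 2051 CPM in experiment 1 and 3176, 2485, 3192 and 2858 CPM in experiment 2, again without overlap except after TMM scaling. Cldn5, the tight junction claudin of endothelium, was ordered the other way, with 421 to 496 CPM in experiment 1 and 231 to 330 CPM in experiment 2. Jam2, a junctional adhesion molecule, ranged from 282 to 1273 CPM, a CV of 44.9%. Tjp1 averaged 1161 CPM, the integrin chain Itgb1 730.3 CPM, Cd47 622.7 CPM and Itga1 493.2 CPM. The inducible leukocyte ligands Sele and Selp were at 0.745 to 5.59 and 3.75 to 12.8 CPM in 6 libraries, and at 50.4 and 51.9 CPM in young 2.4. Icam1 and Vcam1 averaged 53.7 and 76.4 CPM and were highest in that library too.

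G protein-coupled receptors had 9 of 37 members above background, the lowest share of the receptor groups. The adhesion receptor Adgrf5 had 1054 to 1841 CPM, Gpr182 979 to 1729 CPM and the lysophosphatidic acid receptor Lpar6 675 to 884 CPM. Adgrl4 averaged 744.0 CPM, Calcrl and its partner Ramp2, which form the adrenomedullin receptor, 706.9 and 672.3 CPM, and the sphingosine phosphate receptor S1pr1 338.1 CPM. The thrombin receptor F2r had 42.7 to 51.6 CPM in experiment 1 and 122 to 312 CPM in experiment 2, without overlap. Of chemokine receptors other than Gpr182, Cxcr4 averaged 8.19 CPM, Ackr3 12.7 CPM, Ackr4 31.9 CPM and Ackr2 55.1 CPM. The receptors Ednra, S1pr3 and Adora2b stayed at or under 1.28 CPM in every library.

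Notch, Wnt and guidance receptors had 9 of 24 members above background. Plxnc1, a semaphorin receptor, averaged 1857 CPM (1167 to 2580) and Plxnd1, the receptor for Sema3e in vessels, 995.0 CPM (690 to 1389). The Wnt co-receptors Lrp5 and Lrp6 had 404 to 578 and 259 to 364 CPM, and the Wnt receptor Fzd4 had 164 to 250 CPM. Of the Notch receptors, Notch4 had 104 to 143 CPM and Notch1 had 48.5 to 56.7 CPM in experiment 1 and 105 to 145 CPM in experiment 2.

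Transcription factors were described from lists and from family names. Of 123 listed factors, 60 were above background (48.8%, against 13.8% of all targets) and 105 above the lower level, with a median mean of 66.9 CPM. Among all 503 targets whose symbols belong to transcription factor families, with the ID proteins, which inhibit such factors without binding DNA, 109 were above background, the median was 6.20 CPM, and the first 20 held 58.2% of the reads of factors. The first 10 by mean were Jun, Egr1, Fos, Maf, Klf2, Id3, Ets1, Epas1, Junb and Nr2f2. AP-1, ATF and CREB members held 24.6% of factor reads, KLF and SP members 8.42% and ETS members 8.12%, and Ets1 alone made up 33.4% of the ETS reads.

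Of 46 endothelial and developmental factors, 27 were above background. Maf had 1971, 2304 and 2316 CPM in experiment 1 and 2556, 2366, 2686 and 2167 CPM in experiment 2 (2338 ± 236). Klf2, which responds to blood flow, had 1978, 1730 and 1301 CPM in experiment 1 and 1387, 879, 2008 and 1501 CPM in experiment 2, and was lowest in young 2.2. The hypoxia factor Epas1 had 929 to 1268 CPM, the venous factor Nr2f2 791 to 1075 CPM and the ETS repressor Elk3 794 to 1026 CPM. Their CVs were 11.6%, 9.94% and 9.29%, beside a median of 14.9% over targets of at least 50 CPM. After TMM scaling they were 18.0%, 18.0% and 13.7%, beside a median of 18.5%, so Epas1 and Nr2f2 then lay near it. Meis2 averaged 432.6 CPM, Tfec 329.0 CPM, Klf3 328.4 CPM and Mef2a 318.9 CPM. Gata4, the factor required for sinusoidal fate, had 247, 244 and 209 CPM in experiment 1 and 323, 279, 359 and 231 CPM in experiment 2. Its relative Gata6 averaged 0.461 CPM. Erg, a pan-endothelial ETS factor, averaged 98.8 CPM and Fli1 106 CPM. Among factors known from arteries and lymphatics, Sox17, Hey2 and Prox1 were low, at 4.62, 0.164 and 5.97 CPM. The SOX factors Sox18 and Sox7, by contrast, averaged 173.2 and 307.1 CPM and were above background. Etv2, which specifies endothelium in embryos, had 24.4, 6.55 and 19.0 CPM in experiment 1 and 9.19, 34.4, 1.51 and 1.72 CPM in experiment 2, below background in all 7 libraries and highest in the 3 libraries with the most chemosensory receptor reads.

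The SMAD and ID factors, through which BMP receptors act, had 8 of 11 members above background. Id3 had 776 to 1458 CPM, Id1 124 to 298 CPM and Id2 60.2 to 155 CPM. The BMP-responsive factors Smad1 and Smad5 averaged 180.4 and 68.5 CPM, the inhibitory Smad7 and Smad6 158.0 and 66.9 CPM, and the common partner Smad4 70.4 CPM. Smad9 averaged 0.797 CPM. Id1 was lowest in young 1.1 and highest in young 2.4, which had the lowest Bmp6 as CPM but not after TMM scaling. Among 46 signal-responsive factors, 25 were above background, with Atf4 at 457 to 797 CPM, Irf1 at 441 to 1030 CPM, the retinoid receptor Rxra at 459 to 574 CPM, Stat3 at 253 to 340 CPM and Nfe2l1 at 270 to 311 CPM. None of 20 factors of other liver lineages was above background in all 7 libraries, and their median mean was 0.671 CPM. The hepatocyte factor Hnf4a averaged 4.39 CPM, and the myeloid factor Spi1 reached 48.5 CPM in young 2.1 and 23.4 CPM in young 2.2 but 1.90 to 14.2 CPM elsewhere.

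Secreted and ligand genes were fewer among abundant targets. Of 160 listed, 42 were above background (26.3%, against 13.8% of all targets) and 122 above the lower level, and their median mean was 10.4 CPM, below the 55.1 CPM of the receptors. Among BMP and TGF-beta ligands and antagonists, 4 of 20 were above background. Ltbp4, which binds latent TGF-beta in matrix, had 4085, 3835 and 3594 CPM in experiment 1 and 3106, 3323, 3208 and 2642 CPM in experiment 2, without overlap except after TMM scaling. Tgfb1 averaged 749.8 CPM (543 to 1078). With Bmp2 and Bmp6 these were the 4, while the activin subunit Inhbb averaged 25.9 CPM and the endoglin ligands Gdf2 and Bmp10 2.51 and 0.435 CPM.

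Among Wnt, growth and angiogenic factors, 6 of 36 were above background, a share near the 13.8% of all targets. Sema3f averaged 413.1 CPM and Pdgfd 95.9 CPM. Hgf, the hepatocyte growth factor, had 92.6, 97.7 and 96.3 CPM in experiment 1 and 259.6, 143, 218 and 120.1 CPM in experiment 2, so every library of experiment 2 was higher. Wnt2, a pericentral Wnt ligand, had 52.5 CPM in young 1.1 and 81.7 to 132 CPM in the others. Rspo3, which amplifies Wnt signals, had 9.85 to 22.6 CPM in 6 libraries and 56.9 CPM in young 2.4, and Wnt9b had at most 0.166 CPM. The matricellular genes Ccn2 and Ccn1 ranged from 31.3 to 464 CPM and from 61.7 to 509 CPM. Vegfa averaged 30.1 CPM and Angpt2 20.5 CPM. Wnt4 had 4.54 to 44.9 CPM and was highest in young 2.2, 1.1 and 1.3, the libraries with the most chemosensory receptor reads.

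Chemokines and cytokines had 5 of 32 members above background, a share near the 13.8% of all targets. Csf1, the macrophage growth factor, had 445 to 1364 CPM and was highest in young 2.1. The interferon-induced chemokines Cxcl9 and Cxcl10 had 394 to 1113 and 166 to 1163 CPM, both lowest in young 2.2 and highest in young 2.4. Cxcl16 was even at 336 to 457 CPM, and Il1a had 153 to 552 CPM. Il6, Tnf, Il10 and Csf3 each stayed under 1 CPM in every library, and Cxcl12 averaged 3.10 CPM. Ccl5, a product of T and NK cells, had 147 CPM in young 2.2, 33.8 CPM in young 2.1 and at most 6.22 CPM elsewhere.

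Of 19 coagulation and fibrinolysis genes, 6 were above background, beside 13.8% of all targets. F8 had 1194, 1860 and 1377 CPM in experiment 1 and 1817, 1296, 1101 and 1026 CPM in experiment 2. The anticoagulant genes Thbd and Tfpi had 499 to 1179 and 579 to 835 CPM, while F3, the tissue factor that starts clotting, averaged 0.163 CPM. Vwf, the partner of factor VIII in plasma, had 6.98 to 51.0 CPM in 6 libraries and 296 CPM in young 2.4. Matrix, carrier and enzyme genes had 16 of 40 members above background. After Dnase1l3 and Igfbp7 came Sparc at 1599 to 2644 CPM, Igfbp4 at 1456 to 1934 CPM, the perlecan gene Hspg2 at 1096 to 1682 CPM and the collagen IV chain Col4a1 at 967 to 1925 CPM. Oit3 had 699 to 1022 CPM in experiment 1 and 1165 to 1648 CPM in experiment 2, without overlap except after TMM scaling. Col1a1, a fibrillar collagen, averaged 4.94 CPM. Of 13 membrane-bound ligands, 5 were above background: Lgals9 (462.5 CPM), Sema6a (424.4 CPM), the Notch ligand Dll4 (348.6 CPM), Tnfsf10 (336.0 CPM) and Efnb2 (188.8 CPM).

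**Figure D3:**
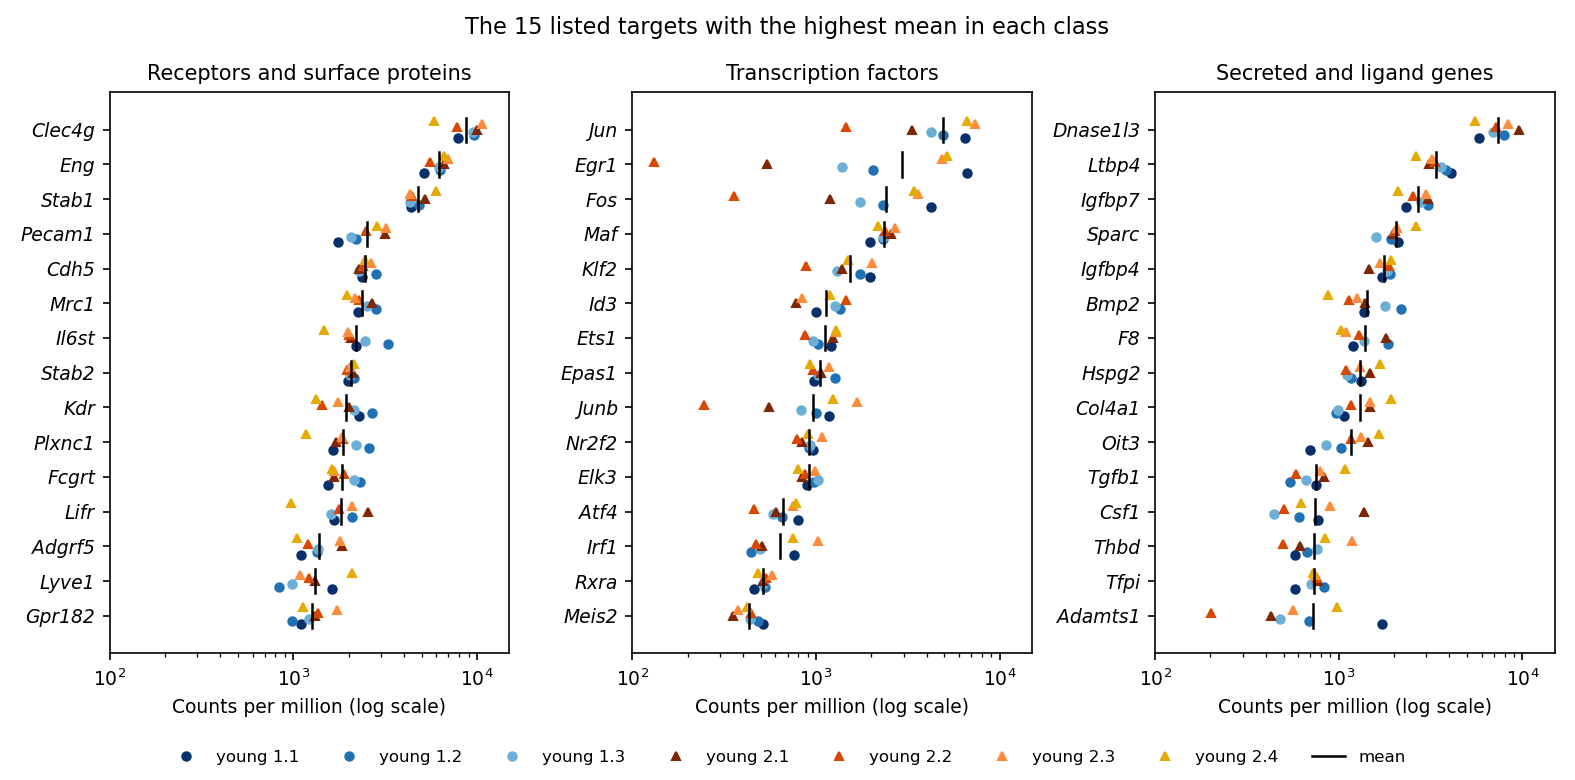
CPM of the 15 listed targets with the highest mean in each of 3 classes, on a log scale, with 1 point per young library (circles, experiment 1; triangles, experiment 2) and a bar at the mean. Stab2 and Maf keep to narrow ranges on this scale (CVs of 11.7% and 16.7% after TMM scaling), and Egr1 has the widest, from 131 CPM in young 2.2 to 6644 CPM in young 1.1.

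Zonation markers of both ends of the sinusoid were found in the sorted cells. Over all targets, 13.8% were above background. Of 7 periportal markers, 6 were above background, including Ltbp4, the metalloprotease-like Adam23 (757 to 2269 CPM), Cd36, Ntn4 (431 to 741 CPM), Dll4 and Efnb2. Of 7 pericentral markers, 4 were, namely Thbd, Kit (331 to 640 CPM), Cdh13 (119.9 to 258 CPM) and Wnt2. Genes of continuous capillaries and large vessels had 3 of 13 members above background, Plvap (660 to 1514 CPM), Emcn (447 to 597 CPM) and Ly6a (91.6 to 619 CPM), and their summed level ran from 1431 to 2681 CPM with the highest value in young 2.4. None of 4 lymphatic markers was above background in all 7 libraries, though 2 exceeded the lower vomeronasal type 2 receptor level in every library. All 13 pan-endothelial markers were above background, with a summed level of 17805 to 21236 CPM.

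Genes of endocytosis and degradation were abundant. Of 20 lysosomal genes, 13 were above background, beside 13.8% of all targets, and their sum was 10734 to 12487 CPM. The proteases Ctsl (2005 to 2867 CPM), Ctsd (1985 to 2603 CPM) and Ctsb (1068 to 1406 CPM) had CVs of 11.0%, 10.3% and 8.45% (16.4%, 16.8% and 16.4% after TMM scaling). Of 15 genes of caveolae, diaphragms and vesicle traffic, 11 were above background, with the clathrin adaptor Dab2 at 1951 to 2624 CPM and Cav1 at 84.2 to 153 CPM. Interferon-induced genes had 6 of 13 members above background, with Bst2 at 418 to 682 CPM, and iron handling and NRF2 target genes had 5 of 16. Of the latter, the iron exporter Slc40a1 had 154 to 256 CPM, Hfe 138 to 210 CPM and Hmox1 82.4 to 119 CPM, while the transferrin receptor Tfrc averaged 2.53 CPM. Respiratory chain subunits had 48 of 72 members above background.

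Immediate early and heat shock genes, which cells induce quickly after a stimulus, differed widely between libraries. Their 16 members summed to 25622, 14693 and 11835 CPM in young 1.1, 1.2 and 1.3, and to 8796, 3482, 23880 and 23238 CPM in young 2.1, 2.2, 2.3 and 2.4. Jun, the AP-1 subunit, had 6447, 4924 and 4205 CPM in experiment 1 and 3344, 1464, 7304 and 6601 CPM in experiment 2. Egr1 had 6644, 2039 and 1381 CPM in experiment 1 and 538, 131, 4824 and 5140 CPM in experiment 2, and its rank went from 6 to 1454. Both genes, and Fos, which had 356 to 4252 CPM, were lowest in young 2.2 and next lowest in young 2.1, and neither experiment held all the high libraries. Zfp36, Junb and Dusp1, which encode an mRNA decay factor, an AP-1 subunit and a MAP kinase phosphatase, were also lowest in young 2.2, at 369, 246 and 288 CPM. The heat shock genes followed another order: Hspa1b had 82.0 to 186 CPM in 6 libraries and 1194 CPM in young 2.4, and Hspa1a had 155 to 269 CPM and 1214 CPM. Hspa1a and Hspa1b are near-identical, so the split of reads between them is uncertain.

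The promoters of both kinds of gene were examined for elements known from immediate early genes. Sequences were available for 14 of the 16 immediate early and heat shock genes, and not for Egr1. TGACGTCA, the element bound by CREB and ATF factors, was searched on both strands of the 250 bases before the start. It was found in 1.98% of all promoters and in 2 of 9 pan-endothelial promoters. Among immediate early and heat shock promoters it was in 2 of 14, those of Dusp1 and Btg2. Its first base lay 143 bases before the Dusp1 start and 166 bases before the Btg2 start. The CArG box bound by serum response factor was in 1.29% of all promoters and in 1 of the 14, that of Zfp36, 58 bases before the start. The Dusp1 window is chr17:26508520-26508722 and the Btg2 window chr1:134079156-134079405, both GRCm38.p6 from RefSeq, minus strand, 5′ to 3′, without bases that an annotated exon covers and with the element in capitals.
Dusp1: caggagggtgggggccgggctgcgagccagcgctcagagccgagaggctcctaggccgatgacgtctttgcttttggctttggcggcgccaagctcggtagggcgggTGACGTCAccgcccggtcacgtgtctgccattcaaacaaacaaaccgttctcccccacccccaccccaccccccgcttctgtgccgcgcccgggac
Btg2: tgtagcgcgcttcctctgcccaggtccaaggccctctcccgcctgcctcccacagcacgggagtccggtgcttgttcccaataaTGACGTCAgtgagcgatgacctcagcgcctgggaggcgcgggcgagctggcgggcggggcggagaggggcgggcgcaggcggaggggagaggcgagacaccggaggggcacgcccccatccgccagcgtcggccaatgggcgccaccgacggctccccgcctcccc
GGGCGG was in 13 of the 14 promoters, against 41.8% of all, 64.5% of those at 100 to 1000 CPM, 56.2% of those at 1000 CPM or more and 64.3% of those of endothelial and developmental factors. The median GC content was 65% in the 14, 64.8% in those factors and 55.2% over all.

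Markers of other cells were low but differed between libraries. Most are genes of at least 3 exons, for which the receptor background was strict. The lower vomeronasal type 2 receptor level, which 14345 of 23930 targets passed, was exceeded in every library by 9 of 14 Kupffer cell markers. So it was by 5 of 11 T and NK cell markers and 4 of 7 B and plasma cell markers. Kupffer cell and macrophage markers had 0 of 14 members above background in all 7 libraries and summed to 81.1 to 207 CPM in 6 libraries and to 610.1 CPM in young 2.1, where Lyz2 alone had 505 CPM. Their defining genes stayed low, with Clec4f at 1.19 to 25.9 CPM, highest in young 1.3, and C1qa without a read in 6 libraries. T and NK cell markers (0 of 11) summed to 256 CPM in young 2.2, 115 CPM in young 2.1 and 12.7 to 38.9 CPM elsewhere, with the granzyme gene Gzma at 99.5 CPM in young 2.2. B and plasma cell markers (0 of 7) summed to 70.05 CPM in young 2.1 and 2.15 to 18.6 CPM elsewhere. Ptprc was highest in the same pair of libraries, at 28.1 CPM in young 2.1 and 38.7 CPM in young 2.2. Cd74, the invariant chain of antigen-presenting cells, had 567 CPM in young 2.1, 258 CPM in young 2.2 and 44.9 to 86.9 CPM elsewhere.

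Hepatocyte markers had 1 of 11 members above background, Alb, at 281 to 1292 CPM, and summed to 432 to 1719 CPM with the highest value in young 2.3. All 11 have at least 3 exons and exceeded the lower vomeronasal type 2 receptor level in every library. Stellate cell and fibroblast markers (0 of 12) summed to 228 CPM in young 2.3, where Dcn had 149 CPM, and to 67.1 to 132 CPM elsewhere. Cholangiocyte markers (0 of 6) summed to 239 CPM in young 2.2, where Spp1 had 197 CPM, and to 13.9 to 77.3 CPM elsewhere. Monocyte and neutrophil markers (0 of 7) summed to 19.4 to 293 CPM, erythroid and platelet markers (0 of 8) to 21.8 to 102 CPM, and dendritic cell markers (1 of 6, Zbtb46, which endothelial cells also express) to 193 to 336 CPM. The part of such cells in any level given above was not tested. For comparison, the LSEC identity genes summed to 36804 (young 2.4) to 48528 CPM (young 2.1).

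Young 2.4 stood apart in the cell cycle list and in single endothelial genes. Cell cycle genes had 0 of 15 members above background in all 7 libraries. All 15 have at least 3 exons and exceeded the lower vomeronasal type 2 receptor level in every library. They summed to 1046 CPM in young 2.4, against 135 to 321 CPM in the other 6. Mki67, a proliferation marker, had 124 CPM there and 8.38 to 40.1 CPM elsewhere, and Top2a 118 CPM against 7.79 to 37.9 CPM. The same library was highest for Vwf, Selp, Sele, Rspo3 and Mcam and for Esm1 (239 CPM against 6.55 to 136 CPM), an endothelial tip cell gene. As CPM, it was lowest for Clec4g, Dnase1l3, Ehd3, Bmp2 and Bmp6. Other LSEC identity genes went the other way, as it was highest for Stab1, Lyve1 and, by a narrow margin, Stab2. With TMM scaling, the lowest library was young 1.1 for Dnase1l3 and young 2.2 for Bmp6, and the highest for Stab2 was young 2.3.

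**Figure D4:**
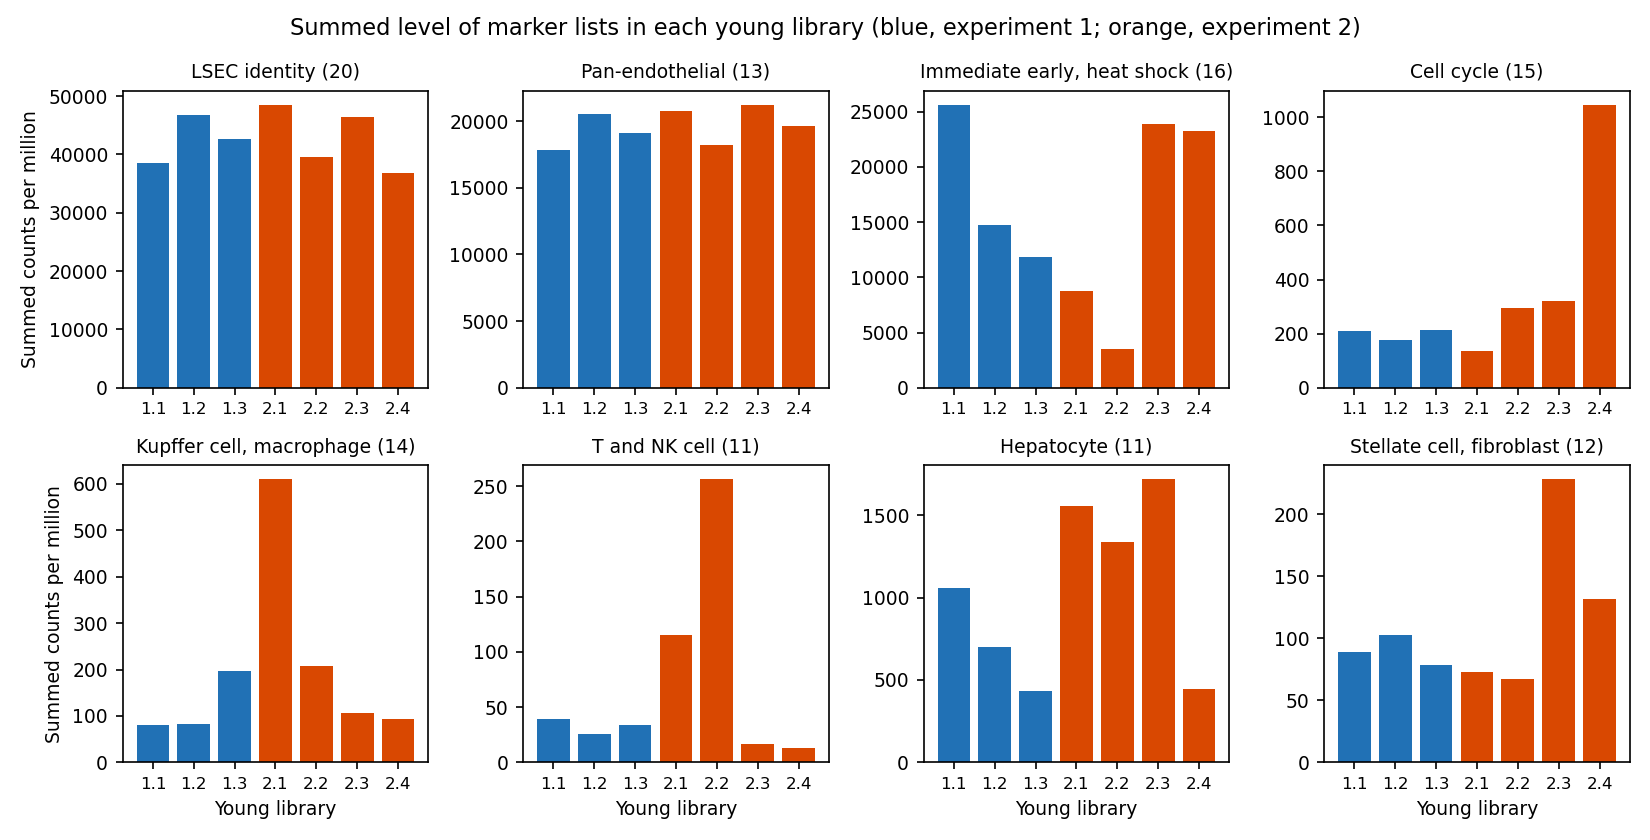
Summed CPM of 8 marker lists in each young library, as bars from 0 (blue, experiment 1; orange, experiment 2; the number of targets is in brackets). LSEC identity lies between 36804 and 48528 CPM in all libraries, immediate early and heat shock genes fall to 3482 CPM in young 2.2, and the cell cycle list reaches 1046 CPM in young 2.4.

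Over the 3776 targets with a mean of at least 50 CPM, the median CV between the 7 libraries was 14.9%, and 13.02% within experiments. Of these targets, 2812 had a CV under 20%, 72 had one over 50% and 14 one over 100%. The 10 least variable as CPM were Atf2, Nek9, Pum2, Brix1, Pitpnb, Zdhhc3, Stab2, Casp8, Pias1 and Arhgef10. Atf2, a CREB family factor, had 69.3 to 74.5 CPM, a CV of 2.39%, and 60.2 to 80.9 with a CV of 9.80% after TMM scaling. These 10 had CVs of 2.39% to 4.08% as CPM and 9.79% to 12.4% after TMM scaling, when 0 of them were among the 10 least variable, so their order depends on the scaling. Stab2 was the most abundant of the 10, ahead of the lipid transfer protein Pitpnb at 143.0 CPM. The 10 most variable were Vwf, Hspa1b, Lyz2, Esm1, H2ac4, Spp1, H1f5, Ccna2, Cd74 and H3c4, with CVs of 112% to 167%, and 9 of them were also among the 10 most variable after TMM scaling. Each of them was led by young 2.4, 2.1 or 2.2. H2ac4, H1f5 and H3c4 are replication-dependent histone genes with near-identical copies, so their reads are uncertain. Between pairs of libraries the Pearson correlation of log2(CPM + 1) across targets was 0.904 to 0.979, a description over targets that share their libraries.

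Spread at low levels differed with the number of exons. At 2 to 50 CPM, the median CV was 74.9% for chemosensory receptor targets, 70.4% for 711 other 1-exon targets and 24.9% for 6605 targets of at least 3 exons. The share of chemosensory receptor reads itself had a CV of 73.3% over the 7 libraries. Of the 9416 targets at 2 to 50 CPM, 2626 had a CV of 65% to 85%, and 1028 of these were chemosensory receptor targets, 461 other 1-exon targets, 49 of 2 exons, 717 of at least 3 exons and 371 without an exon count. Gp1bb, a platelet gene of 1 exon, had 29.5, 10.2 and 23.5 CPM in experiment 1 and 14.9, 25.2, 2.56 and 4.41 CPM in experiment 2.

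**Figure D5:**
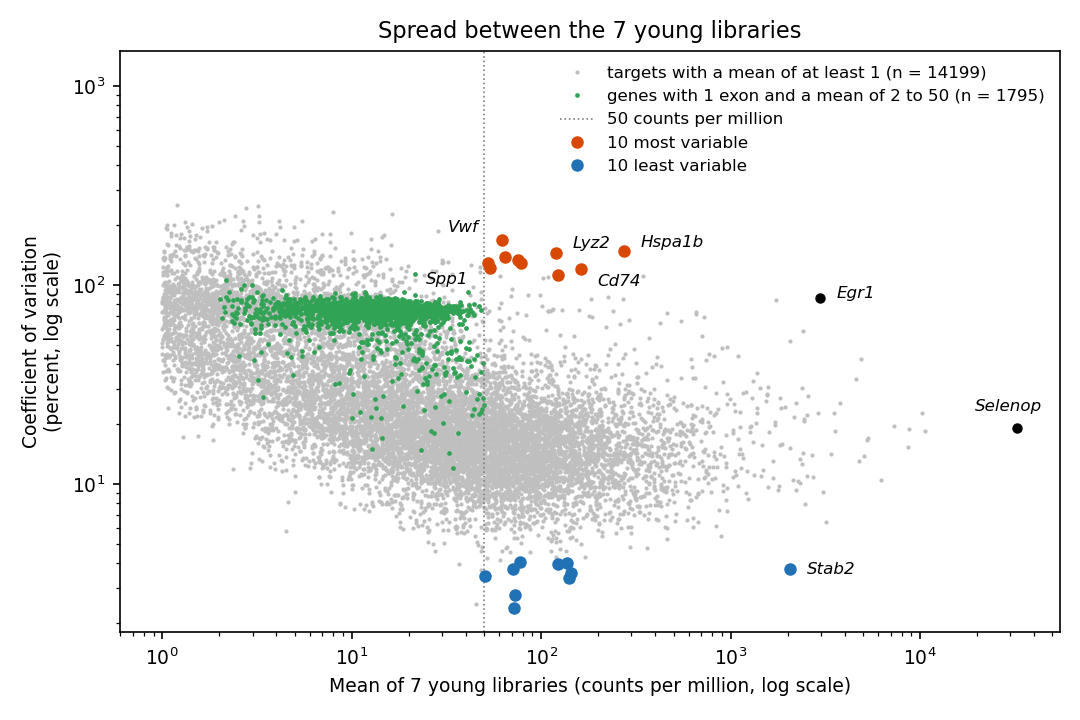
CV between the 7 young libraries against mean CPM, both on log scales, for 14199 targets with a mean of at least 1 CPM, with the 10 most and 10 least variable targets of at least 50 CPM and the 1795 1-exon genes at 2 to 50 CPM in colour. The 1-exon genes form a band around 65% to 85%, most other targets over 50 CPM lie near the median of 14.9%, and Stab2 (3.73%, or 11.7% after TMM scaling) lies at the lower edge.

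The experiment was the sole labelled division of the young libraries. edgeR's quasi-likelihood test of experiment 2 against experiment 1 called 0 of 14489 targets at a Benjamini-Hochberg adjusted p under 0.05 (0% called), with 1570 at an unadjusted p under 0.05. limma-voom also called 0 (2728 unadjusted), while DESeq2 called 272, 219 higher and 53 lower in experiment 2. Without young 2.2, edgeR called 10 targets, all higher in experiment 2. The estimates thus differed by tool and by that library, and a count of 0 does not show that levels were equal. Described without a test, the libraries of the experiments did not overlap for 764 of 3776 targets of at least 50 CPM (20.2%), of which 560 were higher in experiment 2 (14.8%) and 204 lower (5.4%). With TMM scaling, 465 did not overlap, 367 of them higher in experiment 2, and without young 1.1 or young 2.2 the count was 1148 or 1209. Among the 3292 targets above background, 608 did not overlap (18.5%). With chemosensory receptor targets left out, 8867 targets had a mean of at least 10 CPM. Their highest value fell in young 2.2 for 20.5% and in young 1.3 for 5.85%, and their lowest value fell most often in young 2.3 (25.5%). Among the genes described above with a mean of at least 50 CPM, Kdr, Cldn5, Clec1b and Tmsb4x were higher in every library of experiment 1, with and without TMM scaling. Col4a1, Dab2, Ephb4, F2r, Hgf, Lgals9, Notch1, Sema3f and Spp1 were higher in every library of experiment 2 on both scales. The experiments stood apart as CPM and overlapped with TMM scaling for Ltbp4, Il6st, Plpp1, H2-K1 and Pdgfd, higher in experiment 1, and for Pecam1, Flt4, Oit3, Plxnd1, Id2, Il4ra, Lrp5, Ltbr, Pum2, Tgfbr2 and Zbtb46, higher in experiment 2. Cd74 and Gpr182 overlapped as CPM and were higher in every library of experiment 2 with TMM scaling.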

How the data were processed

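RNA of flow-sorted LSECs was extracted with TRIzol LS and amplified with the Ion AmpliSeq mouse transcriptome panel, per the labels' protocols. The authors deposited 1 table per library of raw read counts for 23930 RefSeq targets, without normalization. HTSeq 0.6.0 and DESeq2 1.18.1 are named in the submitters' processing notes. Not given in the sources used here are the aligner, the build, the strand setting and how shared reads were counted. The counting tool's own entries (1.34 to 2.85% of reads) were dropped.

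Gene names came from RefSeq accessions: 18124 targets matched by exact version, 4324 by accession alone and 114 by way of GENCODE, while 1368 did not match and kept their accession. Libraries and groups follow the titles. CPM was a target's share of the gene reads of its library, with no further scaling. The experiment test used edgeR 4.0.16 in R 4.3.3 with filterByExpr, TMM scaling and the quasi-likelihood F test, with Benjamini-Hochberg adjustment over all targets tested and a threshold of 0.05. It was also run on simulated counts. Their spread was set below that estimated for these libraries, so the run does not show how many differences the test would find here. limma-voom (limma 3.58.1) and DESeq2 1.42.0 were alternatives, beside other scalings, filters, backgrounds and leaving out each library. Tables were made with Python 3.11.15, pandas 2.3.3, numpy 2.4.6 and scipy 1.17.1. Of 655 genes on 38 lists, 631 matched a target.

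The young libraries and the lists were chosen with earlier results of these data known. Named were the markers, the 30 most abundant targets, up to 10 members per list, the identity list, the 10 most and least variable targets of at least 50 CPM, and up to 20 transcription factors. Other members are named as examples of low levels, chosen after their values were seen.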

Additional observations from a re-analysis of the deposited data

Results flagged for a closer look

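In a group of 7 libraries, a library was singled out where the gap between it and the nearest other library exceeded Dixon's 95% limit, as a share of the group's whole range. This was done for 120 groups of values and singled out 20, where chance would give about 5% of groups not chosen for their spread. The 10 most and 10 least variable targets were chosen for it, and 9 and 2 of them were singled out, so that rate does not apply to them. The other 100 groups gave 9, and many of the 20 share genes or libraries and are not independent.

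Young 2.4 was far above the others in 9 of them. It had 296 CPM of Vwf (6.98 to 51.0 elsewhere), 1194 CPM of Hspa1b (82.0 to 186), 300.0 CPM of the histone gene H2ac4 (15.4 to 76.5), 299 CPM of H1f5 (16.5 to 80.5), 431 CPM of H3c4 (41.4 to 133), 199.7 CPM of the cyclin gene Ccna2 (11.1 to 58.0) and 797 CPM of Mcam (376 to 516). Its cell cycle list summed to 1046 CPM (135 to 321). The same library had a sum of 2340 CPM for Wnt, growth and angiogenic factors (1199 to 1683).

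Young 2.1 was apart in markers of immune cells. It had 505 CPM of Lyz2 (22.6 to 145 elsewhere), which made up most of its Kupffer cell and macrophage sum of 610.1 CPM (81.1 to 207). It also had 567 CPM of Cd74 (44.9 to 258) and a B and plasma cell sum of 70.05 CPM (2.15 to 18.6).

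Young 2.2, the shallowest library, had 197 CPM of Spp1 (0.242 to 60.0 elsewhere), which made up most of its cholangiocyte sum of 239 CPM (13.9 to 77.3). It also had a T and NK cell sum of 256 CPM (12.7 to 115). Its 20 most abundant targets held 11.7% of reads (13.7% to 15.1% elsewhere). It was the lowest for the kinase Nek9 at 68.6 CPM (72.1 to 74.6) and the palmitoyltransferase Zdhhc3 at 65.6 CPM (70.4 to 73.9), both among the least variable targets.

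Young 2.3 had a stellate cell and fibroblast sum of 228 CPM (67.1 to 132 elsewhere).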

How the results depend on the processing

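No paired analysis was possible because each replicate number occurs once among the young libraries. The experiment test called 0 targets with no TMM scaling, no filter, a receptor-read term and limma-voom, 272 with DESeq2, 1 over all 14 libraries, and 0 to 10 when each library was left out, the 10 arising without young 2.2. The cause of these differences was not tested. Targets above background numbered 3292. They numbered 11980 at 1 CPM in every library, 11914 at 10 reads in every library and 14345 above the vomeronasal type 2 receptors, an alternative chosen after seeing the data. Listed receptors rose from 84 to 140, 140 and 158 under these 3 settings, factors from 60 to 98, 98 and 105, and secreted genes from 42 to 97, 96 and 122, as a lower limit admits more targets. With the 99th percentile of the receptor targets 2525 passed, and leaving out each library gave 3294 to 3500. With TMM scaling, 465 targets did not overlap between experiments instead of 764, and 367 instead of 560 were higher in experiment 2. Leaving out each library gave 883 to 1209 and 635 to 849, because fewer libraries need to stay apart. Targets over 50% CV numbered 61 to 82 when each library was left out, and the median CV was 18.5% with TMM against 14.9%. The 10 least variable targets had CVs of 9.79% to 12.4% with TMM, a comparison chosen after seeing the data. The 73 named mean levels moved by less than 1 SD in all 730 settings run. Most of these leave out a library or take the median, which cannot move a level by 1 SD. Only TMM scaling and a library size without receptor reads could have moved them that far. Depth limits targets near 1 CPM, where 1 read was worth 0.0735 to 0.149 CPM.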
